A study of Mus musculus with 13 samples.

Results

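Genes of the cell cycle and of DNA replication were followed in the tibialis anterior, a fast muscle at the front of the lower leg, of mice of 3 genotypes. The set of 49 genes was chosen by name for roles in the cycle, and 48 of them were among the 13846 genes of the deposited expression sheet. The expression of the remaining gene, Cks2, was not analysed here, and it enters only the counts of promoter letters. Of the 48, 14 belong to DNA replication, 27 to mitosis and 7 to neither, the last being D-type cyclins, E2f1, Cks1b, Stmn1 and Hmgb2.

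The mdxTG libraries (4) came from mdx mice with a transgene that expresses sarcospan, a membrane protein that associates with dystrophin. The mdx libraries (4), from mice that lack the main muscle form of dystrophin and model Duchenne muscular dystrophy, share the dystrophin mutation with mdxTG. The 5 WT libraries are of wild-type muscle. The labels give no age, sex or strain, nor the promoter and species of the transgene, and do not say that every library is a separate animal. Sample identifiers run in one series for WT and in another for mdx and mdxTG, so if these mark cohorts, cohort and genotype cannot be told apart in comparisons with WT.

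Cells enter the cycle when D-type cyclins with their kinases relieve the block that retinoblastoma proteins place on E2F transcription factors. E2F targets then load and fire the MCM helicase, copy the DNA and supply nucleotides, while a later wave of genes, driven through CCAAT boxes and CHR elements, builds the mitotic kinases, spindle, kinetochores and cytokinesis machinery. Muscle fibres are postmitotic; in muscle that degenerates and regenerates, as in mdx, dividing cells include satellite cell progeny and immune and connective tissue cells.

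Promoter sequences are shown for 4 of the genes: a mitotic kinase with all 3 kinds of element, the proliferation marker Mki67, a helicase subunit with E2F matches, and Pttg1, the member that moved against the others. Each is the 220 bases before the first transcribed base of the first listed RefSeq window (GRCm38.p6, the assembly of mm10), read 5′ to 3′ on the gene's strand, which is the minus strand in all 4. Capitals mark matches on either strand to CHR (TTTGAA or TTCGAA), E2F (TTTCCCGC, TTTGGCGC, TTTCGCGC or TTTGCCGC) and CCAAT.
Cdk1, chr10:69352913-69353132: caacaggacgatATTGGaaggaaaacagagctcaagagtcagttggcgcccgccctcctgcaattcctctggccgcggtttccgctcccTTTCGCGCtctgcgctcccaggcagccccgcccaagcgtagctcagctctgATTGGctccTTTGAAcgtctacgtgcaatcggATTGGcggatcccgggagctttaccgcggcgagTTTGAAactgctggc
Mki67, chr7:135716380-135716599: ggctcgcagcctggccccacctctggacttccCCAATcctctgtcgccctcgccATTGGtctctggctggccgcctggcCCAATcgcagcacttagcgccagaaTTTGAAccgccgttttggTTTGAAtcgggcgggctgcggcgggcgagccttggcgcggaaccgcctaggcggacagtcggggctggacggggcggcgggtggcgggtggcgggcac
Mcm6, chr1:128359706-128359925: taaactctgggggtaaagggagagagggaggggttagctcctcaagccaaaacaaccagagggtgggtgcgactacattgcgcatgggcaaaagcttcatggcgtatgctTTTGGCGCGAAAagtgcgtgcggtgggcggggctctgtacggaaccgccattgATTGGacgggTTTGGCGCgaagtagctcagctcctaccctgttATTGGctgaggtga
Pttg1, chr11:43425982-43426201: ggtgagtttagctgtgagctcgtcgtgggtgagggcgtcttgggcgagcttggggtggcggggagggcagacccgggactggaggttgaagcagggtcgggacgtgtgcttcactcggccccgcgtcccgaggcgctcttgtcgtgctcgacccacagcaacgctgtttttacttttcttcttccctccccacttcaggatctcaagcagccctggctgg
In Cdk1 the E2F match begins at position -131 and the CHR matches at -71 and -15, with CCAAT boxes on the opposite strand at -208, -80 and -48. Mki67 has CHR matches at -116 and -98 after 3 CCAAT boxes. Mcm6 has 3 E2F matches, of which those at -110 and -106 overlap on opposite strands, and no CHR match. The Pttg1 window holds none of these letters. Its start lies 270 bases inside the outer end of the GENCODE gene, so the whole stretch shown falls within that gene. Bases before the outer end were not searched, so nothing is read here about elements of a Pttg1 promoter there.

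A RefSeq window of 300 bases (250 before and 50 after the start) was listed for 41 of the 49 genes. CHR letters were present in 18 of 24 mitosis windows (75%) and in 4 of 13 replication windows (30.8%), against 19.4% of the windows of 27025 genes. E2F letters were present in 3 of 24 mitosis windows (12.5%) and 4 of 13 replication windows (30.8%), against 2.32% of all. CCAAT was present in 20 of 24 mitosis windows (83.3%) and 10 of 13 replication windows (76.9%), against 37.9% of all. The 24 mitosis windows include that of Pttg1, which lies within its GENCODE gene, and that of Cks2, whose expression was not analysed. Of the replication windows, that of Mcm7 also lies within its GENCODE gene, and it holds CHR, E2F and CCAAT letters. These counts describe letters in a window and were not tested.

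Libraries held 53.26 to 68.44 M reads, of which 41.74 to 53.87 M fell on the listed genes. Levels are given in normalized CPM: the authors' sheet divides the reads of a gene by an effective library size. They are not corrected for gene length, so they are compared between libraries and not between genes. In these libraries 3 reads amount to 0.0504 to 0.0818 normalized CPM. Sspn, which encodes sarcospan, averaged 1738 ± 185 in mdxTG, 114 ± 4.9 in mdx and 118 ± 13.3 in WT (here and for all means, SD with n = 4, 4 and 5). Dmd, which encodes dystrophin, averaged 59.2 ± 3.69 in mdxTG, 52.6 ± 4.44 in mdx and 223 ± 55.4 in WT, where replicate 2 stood at 124 and the other libraries at 244 to 255. The 8 muscle fibre markers summed to 77380 to 93034 in mdxTG, 107551 to 122515 in mdx and 134162 to 193010 in WT, and no library lacked them. Differences are on the log2(normalized CPM + 0.5) scale, which understates those of low genes, with their standard error (SE) and a two-sided limma test adjusted by Benjamini-Hochberg over 13831 genes and a threshold of 0.05. All 48 genes passed the filter of 0.5 normalized CPM in 4 libraries. Of these, 14 reached it in fewer than 4 WT libraries, and so passed through the groups where they are high and had to differ. These genes, called rare in WT below, are Cdk1, Ccna2, Ccnb1, Ccnb2, Plk1, Aurkb, Birc5, Bub1, Cdc20, Cenpe, Cenpf, Prc1, Ect2 and Ncapg.

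In mdx muscle most cell cycle genes stood above WT. Of the 48 measured, 38 rose and 1 fell, against 18.5% of all tested genes that were called higher and 16.1% called lower, or 34.6% in either direction. The median log2 difference was 0.98, against -0.01 for all genes. In 33 of the 48 every mdx library lay above every WT library, which was so for 15.0% of all genes, and in 1 every mdx library lay below, as in 11.7%. The 14 genes that are rare in WT were all among those that rose, having passed the filter only by higher levels elsewhere; the 9 that did not pass the test had WT means between 3.04 and 44.5. Of the mitosis genes 22 of 27 rose, with a median of 1.41 over the 27, and of the replication genes 10 of 14, with a median of 0.46 over the 14. These class counts cannot be read against each other, because all 14 genes that are rare in WT are mitosis genes; of the other 13 mitosis genes 8 rose. The one that fell was Pttg1, which encodes securin. When mdx and WT alone were fitted with a block for the replicate number, the mitotic kinase gene Aurka was also called lower (log2 difference -0.35, limma adjusted p = 0.0368). The call of Mcm4 was lost without mdx replicate 2 or 4 (adjusted p = 0.0555 and 0.0631). Without WT replicate 2, the library with the low Dmd level, 39 genes rose and 1 fell.

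In mdxTG muscle most mitosis genes stood below mdx. Of the 48, 25 fell and 1 rose, against 12.9% of all tested genes called lower and 15.4% called higher, or 28.4% in either direction. The median log2 difference was -0.51, against -0.00 for all genes. In 28 every mdxTG library lay below every mdx library, as in 15.0% of all genes, and in 1 every mdxTG library lay above, as in 18.1%. Of the 25, Ccnb1, Bub1 and Ncapg reached the filter in fewer than 4 libraries outside mdx, so they passed through mdx and had to be lower elsewhere. Among mitosis genes 20 of 27 fell, with a median of -0.75, and 13 of these 20 are rare in WT. Of the 13 mitosis genes that are not rare in WT 7 fell. The 3 genes that passed through mdx are all mitosis genes, so the counts of the classes cannot be read against each other. Of the replication genes 4 of 14 fell, namely Mcm2, Mcm7, Uhrf1 and Rrm1, with a median of -0.27 over the 14. The gene that rose was Ccnd2, for cyclin D2. Calls lost when 1 library was left out were those of Mcm7 (without mdx replicate 3 or 4 or mdxTG replicate 2, adjusted p = 0.0592, 0.0553 and 0.071), Plk1 (mdx 2 or mdxTG 2, 0.0528 and 0.0539) and Aurkb (mdx 3 or 4 or mdxTG 2 or 3, 0.0541 to 0.0801), besides those of Mki67, Tpx2 and Hmgb2, given with their levels. The number that fell was 19 without mdxTG replicate 2 and 21 without mdx replicate 4.

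Compared with WT, mdxTG muscle had higher levels of most of these genes. Of the 48, 33 rose and 5 fell, against 28.7% of all tested genes called higher and 25.3% called lower, or 54.0% in either direction. The median log2 difference was 0.61, against 0.02 for all genes. In 26 every mdxTG library lay above every WT library, as in 23.7% of all genes, and in 5 every mdxTG library lay below, as in 19.5%. By class, 8 of 14 replication genes rose and 2 fell (median 0.45), and 20 of 27 mitosis genes rose and 3 fell (median 0.70), the 20 including all 14 that are rare in WT. Of the other 13 mitosis genes 6 rose, so these class counts too are not read against each other. The 5 that fell were Mcm2, Rrm1, Aurka, Tpx2 and Pttg1. Fen1, the flap endonuclease gene, Tacc3 and Ncapd2 passed none of the 3 tests, but each was called under some other setting. Fen1 was lower in mdxTG than in WT in DESeq2 (log2 difference -0.26, adjusted p = 0.0294) and without mdxTG replicate 1 (-0.28, adjusted p = 0.0204), where it was also lower in mdxTG than in mdx (adjusted p = 0.0452). Tacc3 was higher in mdx than in WT in plain CPM, which leaves out the authors' scaling factors (0.61, adjusted p = 0.00786), and without WT replicate 2 (0.56, adjusted p = 0.00736). It was lower in mdxTG than in mdx in the fit of these genotypes alone (-0.47, adjusted p = 0.013) and without WT replicate 2 or 5 (adjusted p = 0.0208 and 0.0426). Calls of Tyms were lost without WT replicate 1, 3 or 4 or mdxTG replicate 2, 3 or 4 (adjusted p = 0.0503 to 0.117), of Cdc20 without any of 6 libraries (0.0656 to 0.0904) and of Ccnb1 without mdxTG replicate 1 (0.0512). The mdxTG libraries enter this comparison and the one with mdx, and the mdx libraries enter both of their comparisons, so their counts are given side by side and not set against each other.

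**Figure D1:**
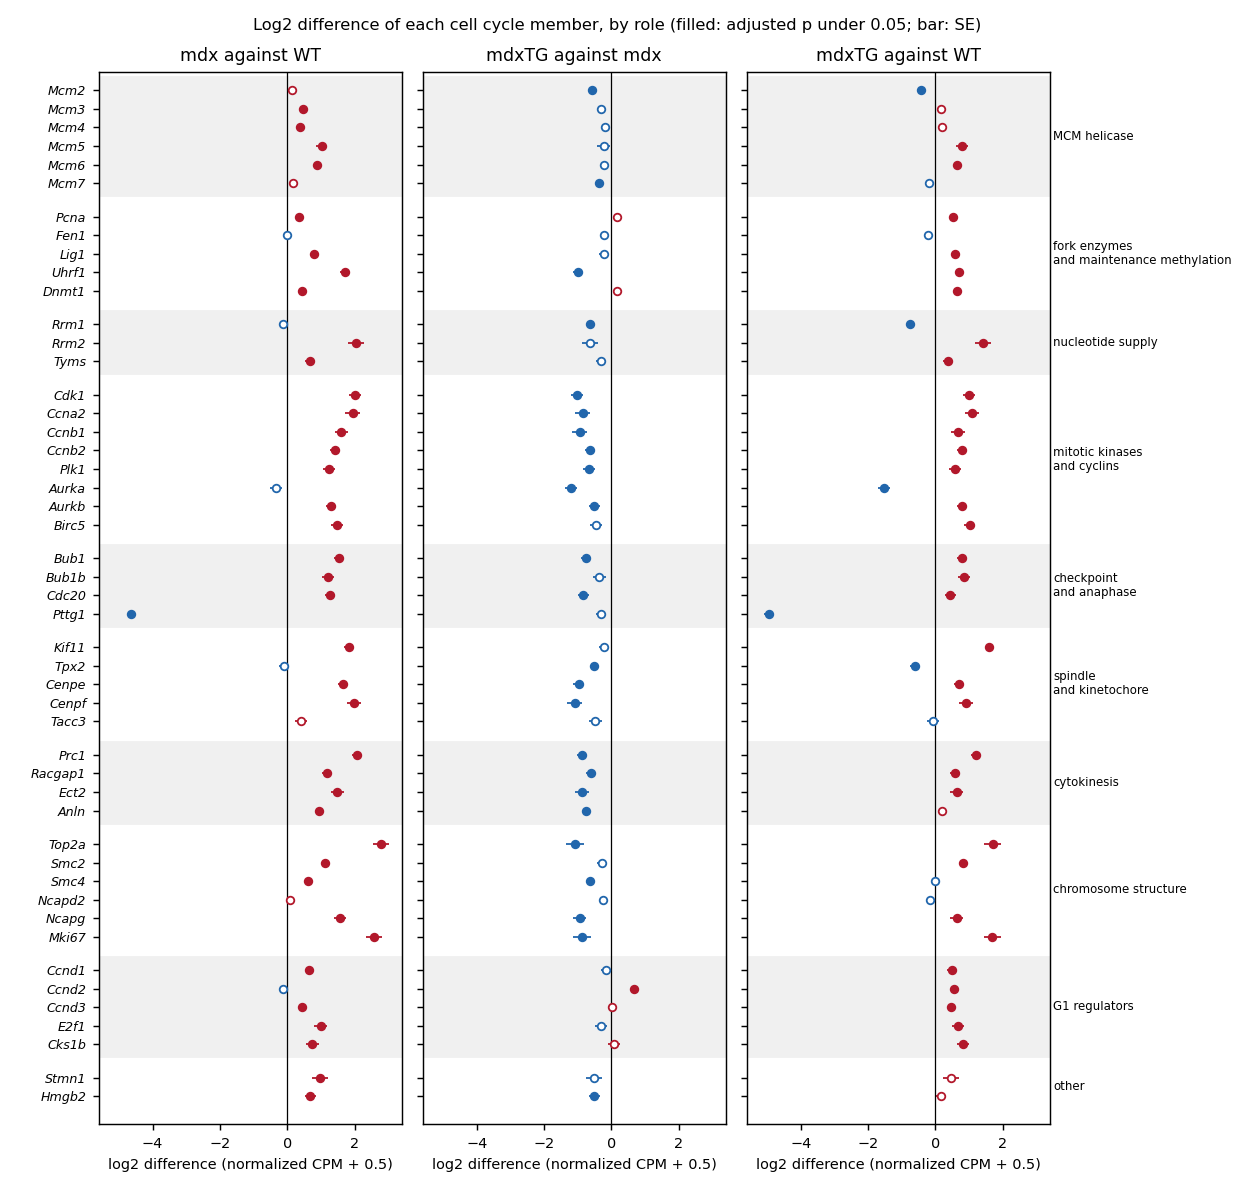
Each point is the log2 difference of 1 gene (x axis, log2 of normalized CPM + 0.5) with its standard error, in rows by role, with 1 panel for each of the 3 comparisons; red is higher, blue lower, filled points have an adjusted p under 0.05. Most mitosis rows lie right of 0 in the first panel (mdx to WT) and left of it in the second (mdxTG to mdx), and Pttg1 lies far left, at -4.64 and -4.95, against WT.

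The MCM helicase unwinds DNA at the replication fork and is formed by Mcm2 to Mcm7. Of its 6 subunit genes 4 rose in mdx against WT (median log2 difference 0.43), 2 fell in mdxTG against mdx, and in mdxTG against WT 2 rose and 1 fell. Mcm6 had 6.91, 6.48, 7.1 and 7.71 in mdxTG, 7.97, 8.58, 7.07 and 9.57 in mdx, and 3.72, 3.65, 4.42, 4.64 and 5.2 in WT (normalized CPM). Every mdxTG and mdx library lay above every WT library, while mdxTG and mdx overlapped. Mcm6 showed log2 differences of 0.87 ± 0.11 for mdx against WT (adjusted p = 5.31e-05), -0.21 ± 0.12 for mdxTG against mdx (adjusted p = 0.201) and 0.65 ± 0.11 for mdxTG against WT (adjusted p = 2.16e-04). Mcm2 had 6.79, 7.1, 8.08 and 7.34 in mdxTG, 10.6, 10.4, 11.8 and 12.1 in mdx, and 11.3, 8.62, 10.5, 10.7 and 9.26 in WT. Here mdx and WT overlapped and all mdxTG libraries lay below both. Its log2 differences were 0.15 ± 0.09 for mdx against WT (adjusted p = 0.22), -0.58 ± 0.10 for mdxTG against mdx (adjusted p = 4.69e-04) and -0.43 ± 0.09 for mdxTG against WT (adjusted p = 0.00132). In plain CPM Mcm2 rose in mdx against WT (log2 difference 0.38, adjusted p = 0.00555) and its difference of mdxTG against WT was -0.07 (adjusted p = 0.506). The log2 differences of mdx against WT ran from 0.15 for Mcm2 to 1.02 for Mcm5. In plain CPM Mcm7 was called in mdx against WT (0.40, adjusted p = 0.00299) and not in mdxTG against mdx (-0.22, adjusted p = 0.0899), and Mcm3 and Mcm4 were higher in mdxTG than in WT (0.49 and 0.56, adjusted p = 0.00339 and 0.00211).

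Fork enzymes and maintenance methylation were represented by Pcna, Fen1, Lig1, Uhrf1 and Dnmt1. In mdx against WT 4 of these 5 rose, in mdxTG against mdx 1 fell, and in mdxTG against WT 4 rose. Pcna, the sliding clamp of DNA polymerases, had 25.7, 23.4, 26.2 and 22.7 in mdxTG, 21, 25, 18.8 and 21.7 in mdx, and 18.8, 17.6, 14.8, 17.1 and 16.6 in WT. The mdxTG libraries lay above all WT libraries and overlapped with mdx, and mdx overlapped with WT. Pcna gave log2 differences of 0.34 ± 0.09 for mdx against WT (adjusted p = 0.0104), 0.18 ± 0.10 for mdxTG against mdx (adjusted p = 0.174) and 0.52 ± 0.09 for mdxTG against WT (adjusted p = 2.46e-04). In plain CPM Pcna was higher in mdxTG than in mdx (log2 difference 0.32, adjusted p = 0.0155). Uhrf1, which brings the maintenance methyltransferase to newly copied DNA, had 1.42, 1.21, 1.29 and 1.58 in mdxTG, 2.44, 3.25, 3.39 and 4.06 in mdx, and 0.676, 0.872, 0.71, 0.45 and 0.538 in WT. The 3 groups did not overlap, with mdx highest and WT lowest. For Uhrf1 the log2 differences were 1.71 ± 0.14 for mdx against WT (adjusted p = 1.42e-06) and 0.71 ± 0.14 for mdxTG against WT (adjusted p = 7.26e-04). In mdxTG against mdx it fell by 1.00 on the log2 scale (SE 0.15, adjusted p = 1.82e-04). Dnmt1, that methyltransferase, averaged 21.6 ± 2.41 in mdxTG, 19 ± 2.56 in mdx and 13.8 ± 1.99 in WT; it rose in mdx and in mdxTG against WT (log2 difference 0.45 and 0.64, adjusted p = 0.00874 and 4.20e-04), and its difference of mdxTG against mdx was 0.18 ± 0.12 (SE, adjusted p = 0.303).

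Nucleotides for DNA synthesis come from ribonucleotide reductase, whose large subunit is encoded by Rrm1 and whose S-phase small subunit by Rrm2, and from thymidylate synthase (Tyms). In mdx against WT 2 of the 3 rose, in mdxTG against mdx 1 fell, and in mdxTG against WT 2 rose and 1 fell. Rrm2 had 3.87, 2.7, 6.62 and 5.39 in mdxTG, 5.63, 6.39, 8.63 and 8.34 in mdx, and 1.18, 1.5, 2.16, 1.11 and 0.976 in WT. Its mdxTG and mdx libraries lay above all WT libraries and overlapped with each other. The log2 differences of Rrm2 were 2.05 ± 0.23 for mdx against WT (adjusted p = 1.39e-05), -0.63 ± 0.24 for mdxTG against mdx (adjusted p = 0.0601) and 1.42 ± 0.23 for mdxTG against WT (adjusted p = 1.11e-04). With mdxTG replicate 3 left out, Rrm2 passed the test in mdxTG against mdx (log2 difference -0.81, adjusted p = 0.0225), as it did without WT replicate 3 (adjusted p = 0.0451). The partner subunit Rrm1 had 23.7, 27.1, 28.3 and 24.4 in mdxTG, 39.7, 42.3, 39 and 40.9 in mdx, and 39.7, 36.8, 50.2, 48.1 and 47.7 in WT. All mdxTG libraries lay below all others, and mdx lay within the WT range. Rrm1 gave -0.13 ± 0.09 for mdx against WT (adjusted p = 0.326), -0.64 ± 0.10 for mdxTG against mdx (adjusted p = 2.59e-04) and -0.76 ± 0.09 for mdxTG against WT (adjusted p = 1.05e-05) on the log2 scale. The genes of the 2 subunits therefore differed in direction in mdxTG against WT, Rrm2 being higher and Rrm1 lower.

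**Figure D2:**
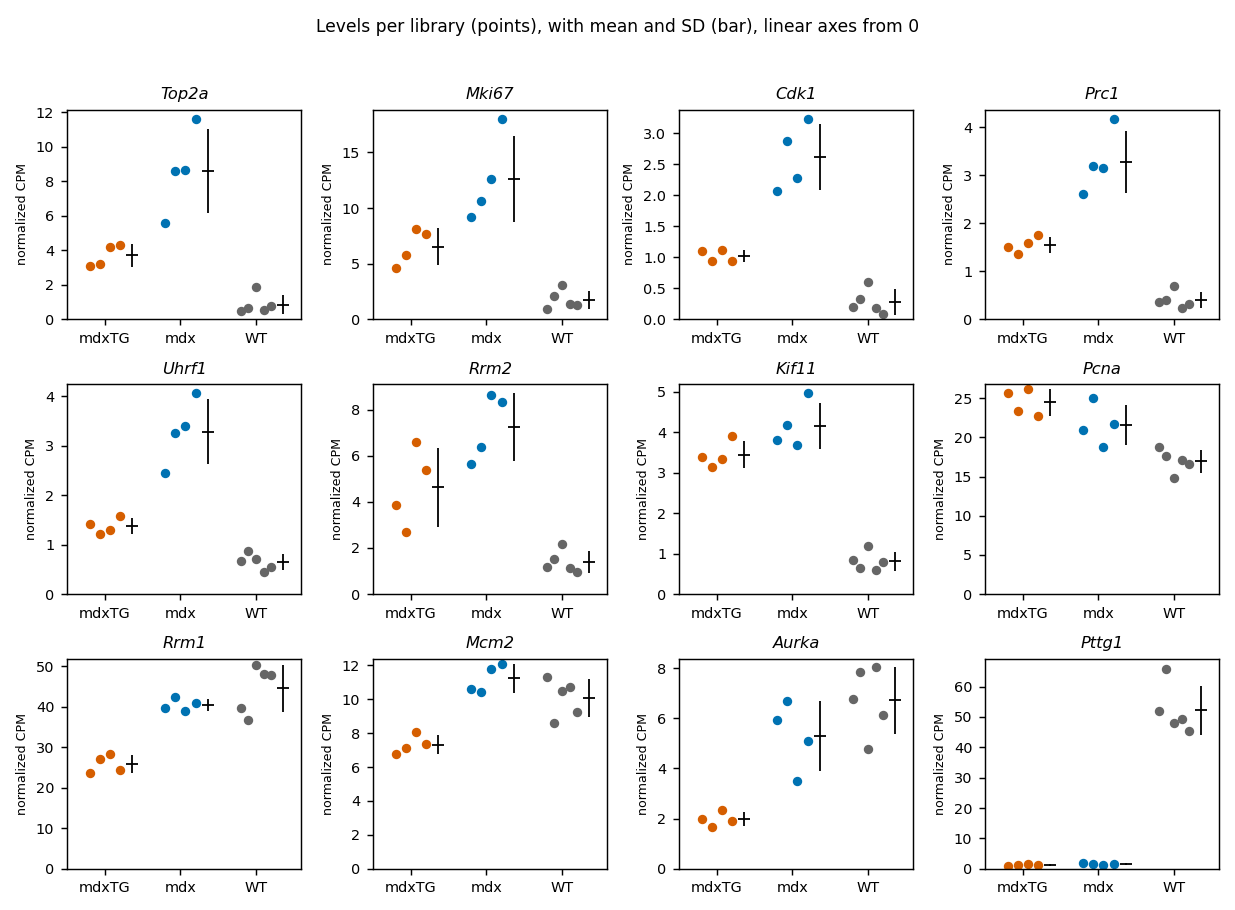
Normalized CPM (y axis, linear from 0) of 12 genes in each library, grouped as mdxTG, mdx and WT, with the mean and SD as a bar beside the points. For Top2a, Mki67, Cdk1, Prc1 and Uhrf1 the mdxTG points lie between the mdx and WT points; for Rrm1, Mcm2 and Aurka they lie below both; for Pttg1 the mdxTG and mdx points are at 0.854 to 1.88 and the WT points at 45.5 to 65.8.

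Of 8 measured genes for mitotic kinases, cyclins and Birc5 (survivin), 7 rose in mdx against WT, with a median log2 difference of 1.45. In mdxTG against mdx 7 fell, and in mdxTG against WT 7 rose and 1 fell. The 7 that rose against WT, all but Aurka, are rare in WT and so had to differ from it. Aurka, which is not rare in WT, did not rise. Cdk1, the kinase that drives entry into mitosis, had 1.1, 0.931, 1.11 and 0.947 in mdxTG, 2.07, 2.87, 2.28 and 3.22 in mdx, and 0.193, 0.327, 0.605, 0.185 and 0.0797 in WT. The groups did not overlap, with mdxTG between mdx and WT; the WT libraries held 4 to 23 reads each. Cdk1 had log2 differences of 2.02 ± 0.17 for mdx against WT (adjusted p = 1.83e-06), -1.02 ± 0.18 for mdxTG against mdx (adjusted p = 8.23e-04) and 1.00 ± 0.17 for mdxTG against WT (adjusted p = 2.27e-04). Aurka, which encodes the kinase of centrosomes and spindle poles, had 2, 1.68, 2.33 and 1.91 in mdxTG, 5.94, 6.71, 3.48 and 5.08 in mdx, and 6.76, 7.85, 4.79, 8.03 and 6.15 in WT. The mdx and WT libraries overlapped, and every mdxTG library lay below all of them. For Aurka the test gave -0.33 ± 0.17 for mdx against WT (adjusted p = 0.161), -1.20 ± 0.18 for mdxTG against mdx (adjusted p = 2.18e-04) and -1.53 ± 0.17 for mdxTG against WT (adjusted p = 4.73e-06). Its relative Aurkb, the kinase of the chromosomal passenger complex, averaged 0.844 ± 0.22 in mdxTG, 1.4 ± 0.199 in mdx and 0.283 ± 0.119 in WT. Unlike Aurka, it rose in mdx against WT (log2 difference 1.29, adjusted p = 1.97e-05) and in mdxTG against WT (0.78, adjusted p = 4.69e-04). The cyclins Ccna2, Ccnb1 and Ccnb2 rose in mdx by 1.94, 1.61 and 1.41 and fell in mdxTG against mdx by 0.85, 0.94 and 0.62 on the log2 scale (adjusted p = 0.00932, 0.00473 and 0.00733 for the falls). All 3 are rare in WT, and Ccnb1 passed the filter through mdx, so that its fall in mdxTG was bound to appear. Birc5 was called lower in mdxTG than in mdx without mdx replicate 1 or mdxTG replicate 1 (adjusted p = 0.0394 and 0.0234).

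The spindle checkpoint holds chromosomes until all are attached, and anaphase starts when Cdc20 directs the destruction of securin. Bub1, a checkpoint kinase, had 0.354, 0.511, 0.672 and 0.592 in mdxTG, 0.895, 1.25, 1.31 and 1.52 in mdx, and 0, 0.0818, 0.21, 0.0795 and 0.0996 in WT. The groups did not overlap, and mdxTG lay between mdx and WT, whose libraries held 0 to 8 reads each. Bub1 differed by 1.55 ± 0.15 for mdx against WT (adjusted p = 3.93e-06), -0.75 ± 0.16 for mdxTG against mdx (adjusted p = 0.00228) and 0.80 ± 0.15 for mdxTG against WT (adjusted p = 3.99e-04) on the log2 scale. It too passed the filter through mdx, the group where it is high, and so had to differ. Cdc20 averaged 0.811 ± 0.127 in mdxTG, 1.84 ± 0.375 in mdx and 0.48 ± 0.21 in WT, and fell in mdxTG against mdx (log2 difference -0.83, adjusted p = 0.00253). Pttg1 (chr11:43420250-43426251, mm10), which encodes securin, had 0.854, 1.11, 1.51 and 1.32 in mdxTG, 1.88, 1.47, 1.34 and 1.72 in mdx, and 51.9, 65.8, 48, 49.4 and 45.5 in WT. All WT libraries lay far above all others, and mdxTG and mdx overlapped. The mean in mdx was 32.5 times lower than in WT and that in mdxTG 43.4 times lower. Its log2 differences were -4.64 ± 0.13 for mdx against WT (adjusted p = 4.90e-11), -0.31 ± 0.14 for mdxTG against mdx (adjusted p = 0.114) and -4.95 ± 0.13 for mdxTG against WT (adjusted p = 6.49e-12). Pttg1 is the only one of the 48 that fell in mdx.

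Motors, kinetochore proteins and spindle assembly factors were Kif11, Tpx2, Cenpe, Cenpf and Tacc3. In mdx against WT 3 of the 5 rose, in mdxTG against mdx 3 fell, and in mdxTG against WT 3 rose and 1 fell. Kif11, the motor that pushes spindle poles apart, had 3.39, 3.14, 3.33 and 3.91 in mdxTG, 3.8, 4.17, 3.68 and 4.96 in mdx, and 0.845, 0.654, 1.18, 0.583 and 0.797 in WT. The mdxTG and mdx libraries overlapped and lay above all WT libraries. Kif11 had 1.83 ± 0.13 for mdx against WT (adjusted p = 4.83e-07), -0.23 ± 0.14 for mdxTG against mdx (adjusted p = 0.239) and 1.60 ± 0.13 for mdxTG against WT (adjusted p = 2.13e-07) as its log2 differences. Cenpe, a kinetochore motor, had 1, 0.968, 1.04 and 0.888 in mdxTG, 1.79, 2.05, 2.87 and 3.03 in mdx, and 0.362, 0.491, 0.631, 0.318 and 0.279 in WT. Its groups did not overlap, with mdxTG between mdx and WT. Cenpe and Cenpf are rare in WT and so had to differ from it. Cenpe showed 1.67 ± 0.15 for mdx against WT (adjusted p = 2.96e-06), -0.97 ± 0.16 for mdxTG against mdx (adjusted p = 4.10e-04) and 0.70 ± 0.15 for mdxTG against WT (adjusted p = 0.00139) on the same scale. Tpx2, which activates Aurora A on spindle microtubules, had 2.79, 2.39, 3.44 and 3.51 in mdxTG, 3.97, 4.99, 4.09 and 4.79 in mdx, and 4.27, 5.15, 6.13, 4.96 and 3.96 in WT. As for Aurka, the mdx and WT libraries overlapped and the mdxTG libraries lay below all of them. Tpx2 differed by -0.11 ± 0.13 for mdx against WT (adjusted p = 0.552), -0.50 ± 0.14 for mdxTG against mdx (adjusted p = 0.0166) and -0.61 ± 0.13 for mdxTG against WT (adjusted p = 0.00154). The call of Tpx2 in mdxTG against mdx was lost without mdx replicate 2 or mdxTG replicate 2 (adjusted p = 0.0511 and 0.06), and in plain CPM both mdxTG calls were lost (0.0613 against mdx and 0.0895 against WT).

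All 4 cytokinesis genes rose in mdx against WT (median log2 difference 1.34), all 4 fell in mdxTG against mdx (median -0.81), and 3 rose in mdxTG against WT. Prc1, which bundles microtubules of the central spindle, had 1.5, 1.35, 1.58 and 1.76 in mdxTG, 2.62, 3.19, 3.15 and 4.17 in mdx, and 0.362, 0.409, 0.684, 0.238 and 0.319 in WT. The groups did not overlap, and mdxTG lay between mdx and WT. Prc1 and Ect2 are rare in WT, so their rises against WT had to appear. Prc1 gave log2 differences of 2.07 ± 0.15 for mdx against WT (adjusted p = 4.50e-07), -0.87 ± 0.16 for mdxTG against mdx (adjusted p = 8.11e-04) and 1.20 ± 0.15 for mdxTG against WT (adjusted p = 1.13e-05). Anln, for anillin of the contractile ring, had 3.46, 3.34, 2.92 and 3.2 in mdxTG, 4.87, 6.28, 6.39 and 5.82 in mdx, and 3.19, 2.4, 2.6, 2.44 and 3.27 in WT. The mdx libraries lay above all others, while mdxTG overlapped with WT. Anln gave 0.95 ± 0.11 for mdx against WT (adjusted p = 2.50e-05), -0.76 ± 0.12 for mdxTG against mdx (adjusted p = 2.50e-04) and 0.19 ± 0.11 for mdxTG against WT (adjusted p = 0.161). In plain CPM it was also called higher in mdxTG than in WT (0.51, adjusted p = 0.00175). Racgap1 and Ect2, which position and activate the ring, fell by 0.60 and 0.87 in mdxTG against mdx (adjusted p = 0.0133 and 0.00586).

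Genes of mitotic chromosome structure comprised topoisomerase, condensin subunits and Ki-67. Of these 6, 5 rose in mdx against WT (median log2 difference 1.35), 4 fell in mdxTG against mdx, and 4 rose in mdxTG against WT. Top2a, which untangles sister chromatids, had 3.12, 3.18, 4.22 and 4.34 in mdxTG, 5.59, 8.58, 8.65 and 11.6 in mdx, and 0.483, 0.627, 1.87, 0.53 and 0.777 in WT. The groups did not overlap, and the highest WT library, replicate 3, was well apart from the other WT libraries. Top2a had the largest rise of the 48 in mdx, with log2 differences of 2.79 ± 0.24 for mdx against WT (adjusted p = 2.12e-06), -1.08 ± 0.26 for mdxTG against mdx (adjusted p = 0.00585) and 1.70 ± 0.24 for mdxTG against WT (adjusted p = 4.30e-05). Mki67, the marker of cycling cells, had 4.62, 5.77, 8.13 and 7.64 in mdxTG, 9.19, 10.6, 12.6 and 18 in mdx, and 0.966, 2.07, 3.05, 1.38 and 1.25 in WT. The mdx libraries lay above all mdxTG libraries and these above all WT libraries. Mki67 gave 2.58 ± 0.25 for mdx against WT (adjusted p = 5.21e-06), -0.88 ± 0.27 for mdxTG against mdx (adjusted p = 0.0225) and 1.69 ± 0.25 for mdxTG against WT (adjusted p = 6.17e-05), and its call in mdxTG against mdx was lost without mdx replicate 4 or mdxTG replicate 1 (adjusted p = 0.0718 in both) or mdxTG replicate 2 (0.0597). Smc4, a condensin subunit, had 9.5, 10.8, 11.5 and 10.8 in mdxTG, 15.2, 16.3, 16 and 19.4 in mdx, and 9.23, 10.1, 13.2, 10.9 and 10 in WT. The mdx libraries lay above all others and mdxTG lay within the WT range. Smc4 differed by 0.63 ± 0.10 for mdx against WT (adjusted p = 3.61e-04), -0.63 ± 0.11 for mdxTG against mdx (adjusted p = 6.78e-04) and 0.00 ± 0.10 for mdxTG against WT (adjusted p = 0.992). In plain CPM it was also called higher in mdxTG than in WT (0.36, adjusted p = 0.0169). The condensin subunit gene Ncapd2 averaged 14.9 ± 1.66 in mdxTG, 17.7 ± 1.6 in mdx and 16.7 ± 1.27 in WT and passed none of the 3 tests (adjusted p = 0.536, 0.0685 and 0.132), though in plain CPM it was higher in mdx than in WT (log2 difference 0.31, adjusted p = 0.00612) and in mdxTG than in WT (0.20, adjusted p = 0.0365), and without mdxTG replicate 1 it was lower in mdxTG than in mdx (adjusted p = 0.0336).

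Among the G1 regulators Ccnd1, Ccnd2, Ccnd3, E2f1 and Cks1b, 4 rose in mdx against WT, 1 rose and 0 fell in mdxTG against mdx, and all 5 rose in mdxTG against WT. Ccnd2 (chr6:127125162-127152193, mm10), for cyclin D2, had 22.9, 27.1, 23.8 and 25 in mdxTG, 15.6, 13.9, 15.9 and 15.5 in mdx, and 13.5, 14.6, 17.9, 18.2 and 20.7 in WT. All mdxTG libraries lay above all mdx and WT libraries, and mdx overlapped with WT. Ccnd2 showed log2 differences of -0.14 ± 0.11 for mdx against WT (adjusted p = 0.365), 0.68 ± 0.12 for mdxTG against mdx (adjusted p = 5.67e-04) and 0.54 ± 0.11 for mdxTG against WT (adjusted p = 8.49e-04). The other D-type cyclins did not pass in mdxTG against mdx, with log2 differences of -0.17 ± 0.14 for Ccnd1 and 0.03 ± 0.11 for Ccnd3 (SE). E2f1, the activator of replication genes, had 2.02, 1.92, 1.76 and 2.25 in mdxTG, 2.51, 2.25, 2.93 and 2.69 in mdx, and 0.531, 1.31, 1.42, 0.795 and 1.45 in WT. All mdxTG and mdx libraries lay above all WT libraries, and all mdxTG libraries lay below all mdx libraries, the closest of which both round to 2.25. E2f1 gave 0.99 ± 0.18 for mdx against WT (adjusted p = 6.15e-04), -0.31 ± 0.18 for mdxTG against mdx (adjusted p = 0.229) and 0.68 ± 0.18 for mdxTG against WT (adjusted p = 0.0048). Stmn1, for the microtubule destabiliser stathmin, had 2.02, 2.47, 2.44 and 2.17 in mdxTG, 3.49, 4.23, 2.78 and 3.43 in mdx, and 1.91, 2.89, 1.13, 0.715 and 1.51 in WT. Its mdxTG libraries lay below all mdx libraries and overlapped with WT, as mdx also did through 1 library. Stmn1 differed by 0.98 ± 0.23 for mdx against WT (adjusted p = 0.00407), -0.51 ± 0.24 for mdxTG against mdx (adjusted p = 0.126) and 0.46 ± 0.23 for mdxTG against WT (adjusted p = 0.0983). Without WT replicate 2 it was called higher in mdxTG than in WT (log2 difference 0.65, adjusted p = 0.00864) and lower in mdxTG than in mdx (adjusted p = 0.0467). Plain CPM also called it higher in mdxTG than in WT (0.76, adjusted p = 0.00741). Hmgb2, a chromatin protein of proliferating cells, had 4.46, 3.76, 4.53 and 4.06 in mdxTG, 5.89, 7.17, 5.34 and 6.42 in mdx, and 3.04, 5.43, 3.66, 2.78 and 3.76 in WT. The mdxTG libraries lay below all mdx libraries, and both overlapped with WT. Hmgb2 gave 0.69 ± 0.15 for mdx against WT (adjusted p = 0.00258), -0.51 ± 0.16 for mdxTG against mdx (adjusted p = 0.0256) and 0.18 ± 0.15 for mdxTG against WT (adjusted p = 0.326), and its call in mdxTG against mdx was lost without mdx replicate 2 or 4 or mdxTG replicate 2 or 4 (adjusted p = 0.0571 to 0.0772) and in plain CPM (0.0842). Without WT replicate 2, Hmgb2 was called higher in mdxTG than in WT (log2 difference 0.31, adjusted p = 0.0351), as in plain CPM (0.51, adjusted p = 0.00859).

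Replication was then set against mitosis within each library, as the mean log2 level of the 14 replication genes minus that of the 27 mitosis genes. Only changes of this difference between libraries can be read, since levels are not per length, and no test was made over the chosen genes. It was 1.40, 1.51, 1.45 and 1.49 in mdxTG, 1.18, 1.13, 1.04 and 1.00 in mdx, and 1.65, 1.42, 1.39, 1.71 and 1.66 in WT. The mdx libraries lay below all others, and mdxTG overlapped with WT. The mitosis class holds all 14 genes that are rare in WT and the replication class none, so nothing is read from the order of mdx and WT. Ccnb1, Bub1 and Ncapg, which passed the filter through mdx, are also mitosis genes. The filter removed none of the measured genes of either class, and mdxTG minus mdx was 0.38 both with it and without it. With a filter of 2 normalized CPM it was 0.32. The part of Ccnb1, Bub1 and Ncapg in the order of mdx and mdxTG was not tested. The group means were 1.46 ± 0.05 in mdxTG, 1.09 ± 0.08 in mdx and 1.57 ± 0.15 in WT (SD, n = 4, 4 and 5), so that mdx minus WT was -0.48, mdxTG minus mdx 0.38 and mdxTG minus WT -0.10. The size depends on the pseudocount, the filter and Pttg1. The mdx minus WT value was -0.86 with a pseudocount of 0.1, -0.13 with a pseudocount of 2, -0.22 with a filter of 2 normalized CPM and -0.70 without Pttg1, a setting chosen after seeing the data. The mdxTG minus WT value changed sign, to 0.07 with a pseudocount of 2 and 0.10 with a filter of 2 normalized CPM. By class, the replication genes averaged 2.73 ± 0.10, 3.05 ± 0.11 and 2.41 ± 0.06 in mdxTG, mdx and WT, and the mitosis genes 1.26 ± 0.10, 1.97 ± 0.18 and 0.84 ± 0.19 (mean log2, SD).

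**Figure D3:**
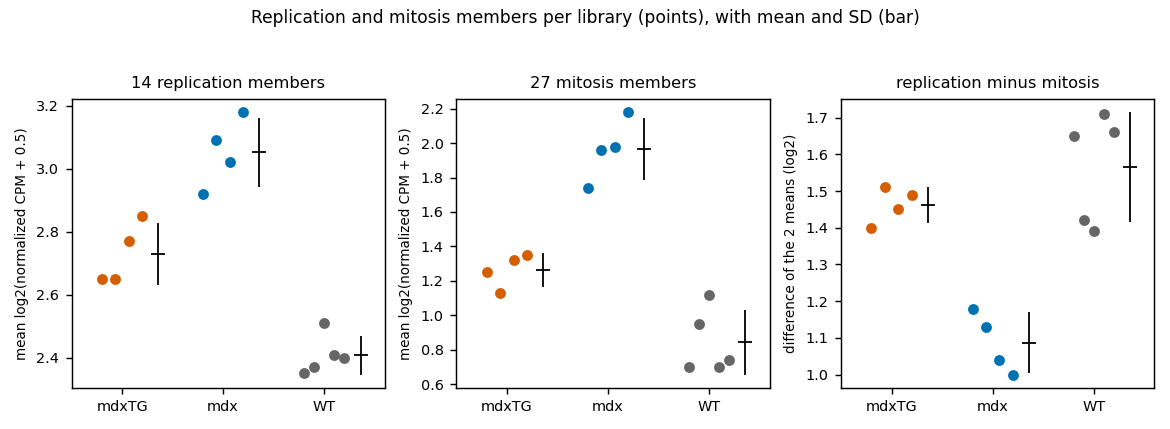
Mean log2(normalized CPM + 0.5) per library of the 14 replication genes (left) and the 27 mitosis genes (middle), and their difference (right), for mdxTG, mdx and WT, with mean and SD as a bar beside the points. In the right panel the mdx points lie at 1.00 to 1.18 and all other points at 1.39 or above. All genes that are rare in WT or passed the filter only through mdx are mitosis genes, so nothing is read from the order of mdx and WT. The filter itself removed none of the measured genes.

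Libraries of 1 genotype also differed among themselves. In mdx, replicate 4 was the highest library for 17 of the 27 mitosis genes and replicate 1 the lowest for 20. In WT, replicate 3 was the highest for 16. In mdxTG, replicate 2 was the lowest for 15. Without WT replicate 3 the counts were 38 higher and 1 lower in mdx against WT, and 32 higher and 5 lower in mdxTG against WT.

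Some markers of cell types that could divide moved with the genotypes as well. Shares of all tested genes were 18.5% higher and 16.1% lower in mdx against WT. They were 15.4% and 12.9% in mdxTG against mdx, and 28.7% and 25.3% in mdxTG against WT. The 12 macrophage markers summed to 580 to 793 normalized CPM in mdxTG, 659 to 1233 in mdx and 107 to 336 in WT, with 11 higher in mdx against WT, 1 higher and 4 lower in mdxTG against mdx, and 11 higher in mdxTG against WT. In mdx their sum ordered the libraries as the mean of the mitosis genes did, with sums of 659, 878, 1032 and 1233 in replicates 1 to 4 beside mean log2 levels of 1.74, 1.96, 1.98 and 2.18. In mdxTG the sums of 580, 713, 638 and 793 stood beside means of 1.25, 1.13, 1.32 and 1.35, and the order was not the same. The order in mdx was not particular to macrophages. Sums of fibro-adipogenic markers (802, 1055, 1177 and 1316 in mdx replicates 1 to 4) and Cd4 (0.764, 1.09, 1.29 and 3.07) ran the same way. Those of satellite cell, endothelial, neutrophil and erythroid markers did not. The 8 satellite cell and myoblast markers summed to 72.6 to 88 in mdxTG, 89.6 to 135 in mdx and 43.3 to 68.9 in WT, with 7 higher in mdx against WT, 1 higher and 4 lower in mdxTG against mdx, and 4 higher in mdxTG against WT. Those that fell in mdxTG against mdx were Myf5, Mymk, Mymx and Megf10, while Cdh15 rose. Mymk and Mymx reached the filter level in WT only in replicate 3, so their rises against WT had to appear. Among the macrophage markers Fcgr1, Itgam, Ctss and Mpeg1 fell in that comparison and Cd68 rose. No macrophage or satellite cell marker averaged 0 in any genotype. The WT means of Mymk and Mymx rest on replicate 3, at 3.81 and 1.42, with the other WT libraries at or below 0.212. The 7 fibro-adipogenic markers summed to 1244 to 1782 in mdxTG, 802 to 1316 in mdx and 685 to 1416 in WT, and the 7 endothelial markers to 342 to 414, 343 to 421 and 329 to 488 in the same order. Of the fibro-adipogenic markers 0 were called in mdx against WT, 1 was higher in mdxTG against mdx, and 4 were higher and 1 lower in mdxTG against WT. Of the endothelial markers 1, 0 and 3 were lower in these comparisons and 0 higher. The 3 erythroid markers summed to 54.4 to 132 in mdxTG, 34.4 to 71.6 in mdx and 69.4 to 161 in WT. Of the lymphocyte markers only Cd4 was measured, at means of 1.12 in mdxTG, 1.55 in mdx and 0.323 in WT. The 3 neutrophil markers in the sheet summed to 1.9 to 11.3 in mdxTG, 4.25 to 4.83 in mdx and 1.18 to 7.31 in WT. Only Csf3r of them was tested, at means of 1.94 ± 0.36 in mdxTG, 4 ± 0.141 in mdx and 1.12 ± 0.33 in WT, and it was higher in mdx than in WT, lower in mdxTG than in mdx and higher in mdxTG than in WT (limma adjusted p = 6.38e-06, 7.52e-04 and 0.00346). The part of these cell types in the differences was not tested. In RNA of a whole muscle, fewer cells of a type and less RNA per cell cannot be told apart.

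Beyond the 49 genes, 116 further genes of the cycle were listed, and 106 were measured. Their counts stand against shares of all tested genes of 18.5% higher and 16.1% lower in mdx against WT, 15.4% and 12.9% in mdxTG against mdx, and 28.7% and 25.3% in mdxTG against WT. In mdx against WT 54 rose and 8 fell (median log2 difference 0.32), in mdxTG against mdx 8 rose and 41 fell (-0.25), and in mdxTG against WT 39 rose and 27 fell (0.18). The 27 are 25.5% of the 106, near the share of all genes. Among 39 other mitosis genes 29 rose and 1 fell in mdx against WT, 1 rose and 26 fell in mdxTG against mdx, and 22 rose and 5 fell in mdxTG against WT. How many of these 39 passed the filter only through mdx was not counted. Pbk, a mitotic kinase gene, averaged 0.459 ± 0.0713 in mdxTG, 1.14 ± 0.154 in mdx and 0.105 ± 0.0618 in WT and differed by 1.44 ± 0.12 for mdx against WT (adjusted p = 1.72e-06), -0.77 ± 0.13 for mdxTG against mdx (adjusted p = 4.77e-04) and 0.67 ± 0.12 for mdxTG against WT (adjusted p = 3.70e-04). With at most 7 reads in a WT library and an mdxTG mean under 0.5, Pbk passed the filter through mdx. Its rise in mdx and its fall in mdxTG were therefore bound to appear. Lin9, a subunit of the complex that activates mitosis genes, averaged 3.22 ± 0.332 in mdxTG, 5.89 ± 0.718 in mdx and 5.82 ± 0.259 in WT; it fell in mdxTG, with log2 differences of -0.78 ± 0.10 for mdxTG against mdx (adjusted p = 4.74e-05) and -0.77 ± 0.09 for mdxTG against WT (adjusted p = 1.04e-05). For 40 genes of origin licensing and the fork the counts were 13 higher and 4 lower in mdx against WT, 1 and 7 in mdxTG against mdx, and 6 and 13 in mdxTG against WT. The 13 and 4 are 32.5% and 10.0% of the 40, the 1 and 7 are 2.50% and 17.5%, and the 6 and 13 are 15.0% and 32.5%. Pold2, a subunit of polymerase delta, averaged 18.7 ± 0.0947 in mdxTG, 16.1 ± 2.13 in mdx and 22.2 ± 1.86 in WT and was lower in mdx than in WT, with a log2 difference of -0.45 ± 0.09 for mdx against WT (adjusted p = 0.00129). That call was lost in plain CPM (-0.22, adjusted p = 0.0521).

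Of 20 further G1 to S regulators 8 rose and 2 fell in mdx against WT, 5 rose and 6 fell in mdxTG against mdx, and 8 rose and 6 fell in mdxTG against WT. As shares of the 20 these are 40.0% and 10.0%, 25.0% and 30.0%, and 40.0% and 30.0% in the same order of comparisons, beside the shares of all genes. Cdk6, a kinase partner of D-type cyclins, had 31.1, 25.3, 26 and 24.3 in mdxTG, 8.9, 14.5, 12.7 and 13.7 in mdx, and 3.98, 3.65, 4.1, 4.29 and 4.54 in WT. The groups did not overlap and mdxTG was highest. Cdk6 gave log2 differences of 1.47 ± 0.13 for mdx against WT (adjusted p = 1.80e-06), 1.08 ± 0.13 for mdxTG against mdx (adjusted p = 3.11e-05) and 2.55 ± 0.13 for mdxTG against WT (adjusted p = 1.11e-09). Rb1, the retinoblastoma gene, averaged 47.4 ± 6.73 in mdxTG, 33.4 ± 2.52 in mdx and 26 ± 2.31 in WT and had 0.36 ± 0.10 for mdx against WT (adjusted p = 0.0114), 0.49 ± 0.10 for mdxTG against mdx (adjusted p = 0.0026) and 0.85 ± 0.10 for mdxTG against WT (adjusted p = 5.46e-06), also with mdxTG above mdx and mdx above WT in every library. E2f6, a repressive E2F, averaged 83.7 ± 6.33 in mdxTG, 99.9 ± 7.83 in mdx and 179 ± 8.77 in WT and ran the other way, with -0.84 ± 0.07 for mdx against WT (adjusted p = 1.97e-06), -0.25 ± 0.08 for mdxTG against mdx (adjusted p = 0.0228) and -1.09 ± 0.07 for mdxTG against WT (adjusted p = 2.17e-08). The step of E2f6 between mdxTG and mdx was lost without mdx replicate 1 or mdxTG replicate 2 or 4 (adjusted p = 0.0583 to 0.0795) and in plain CPM (0.213). Rbl2, for the pocket protein p130 of quiescent cells, averaged 44.4 ± 2.89 in mdxTG, 55.4 ± 6.07 in mdx and 77.1 ± 6.78 in WT and had -0.48 ± 0.09 for mdx against WT (adjusted p = 8.79e-04), -0.31 ± 0.09 for mdxTG against mdx (adjusted p = 0.0214) and -0.79 ± 0.09 for mdxTG against WT (adjusted p = 4.10e-06). In plain CPM its calls were lost in mdx against WT and in mdxTG against mdx (adjusted p = 0.0753 and 0.257), and that of mdxTG against mdx was also lost without mdx replicate 3 or 4 or mdxTG replicate 1 (0.0575 to 0.0678).

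The 7 genes for inhibitors of cyclin-dependent kinases were split, with 4 higher and 1 lower in mdx against WT, 1 higher and 2 lower in mdxTG against mdx, and 3 higher and 3 lower in mdxTG against WT, too few genes to read against the shares of all genes. Cdkn1a (chr17:29090976-29100727, mm10), for p21, had 137, 111, 88.5 and 102 in mdxTG, 32.2, 41.1, 51 and 43.5 in mdx, and 12.9, 13.9, 13.9, 8.56 and 10.2 in WT. The groups did not overlap, with mdxTG highest and WT lowest. Cdkn1a differed by 1.78 ± 0.17 for mdx against WT (adjusted p = 3.39e-06), 1.38 ± 0.17 for mdxTG against mdx (adjusted p = 4.24e-05) and 3.16 ± 0.17 for mdxTG against WT (adjusted p = 1.95e-09). Cdkn2a, for p16 and ARF, had 2.04, 1.24, 1.98 and 2.55 in mdxTG, 1.92, 1.92, 1.47 and 1.72 in mdx, and 0.0242, 0.0545, 0, 0.053 and 0 in WT. The WT libraries held 5 reads in all, and mdxTG and mdx overlapped far above them. Cdkn2a passed the filter through mdxTG and mdx, so its differences from WT were bound to appear. Cdkn2a gave 2.10 ± 0.15 for mdx against WT (adjusted p = 3.20e-07), 0.10 ± 0.15 for mdxTG against mdx (adjusted p = 0.685) and 2.19 ± 0.15 for mdxTG against WT (adjusted p = 2.23e-08). Cdkn1b, for p27, averaged 32 ± 1.18 in mdxTG, 43.3 ± 2.64 in mdx and 49.1 ± 1.78 in WT, and fell in mdxTG, with -0.43 ± 0.06 for mdxTG against mdx (adjusted p = 2.12e-04) and -0.61 ± 0.06 for mdxTG against WT (adjusted p = 1.48e-06). Cdkn1c, for p57, averaged 15.6 ± 1.23 in mdxTG, 27.6 ± 3.43 in mdx and 21.9 ± 3.7 in WT and likewise fell in mdxTG, with -0.80 ± 0.12 for mdxTG against mdx (adjusted p = 2.03e-04) and -0.46 ± 0.11 for mdxTG against WT (adjusted p = 0.00354). In plain CPM its difference of mdxTG against WT was -0.10 (adjusted p = 0.492). The calls of Cdkn1b (lower, -0.18), Cdkn1c (higher, 0.33) and Cdkn2b (higher, 0.34) in mdx against WT were lost when both genotypes alone were fitted with a block for the replicate number (adjusted p = 0.0626, 0.0778 and 0.101), and that of Cdkn2b in mdxTG against WT was lost in edgeR and DESeq2 (0.0575 and 0.0717) and without any of 10 libraries (0.0512 to 0.125). In mdx against WT, leaving out mdx replicate 2, 3 or 4, or WT replicate 1 or 5, ended the call of Cdkn1b (0.0551 to 0.12). That of Cdkn1c ended on leaving out mdx replicate 3 or 4, or any WT replicate but 2 (0.0596 to 0.113), and that of Cdkn2b on leaving out mdx replicate 1 or 3, or WT replicate 2, 3 or 5 (0.0573 to 0.106). Cdkn2c, for p18, averaged 4.13 ± 0.372 in mdxTG, 5.62 ± 0.398 in mdx and 6.81 ± 2.08 in WT and fell in mdxTG, with -0.62 ± 0.15 for mdxTG against WT (adjusted p = 0.00297), though not in plain CPM (-0.28, adjusted p = 0.101). Without WT replicate 1 it was also called lower in mdxTG than in mdx (-0.40, adjusted p = 0.00425). Cdkn2d, for p19, averaged 12.7 ± 0.958 in mdxTG, 13.3 ± 1.91 in mdx and 11.4 ± 1.02 in WT and passed none of the 3 tests. In plain CPM it was higher in mdx and in mdxTG than in WT (0.44 and 0.52, adjusted p = 0.0023 and 3.11e-04), and without mdx replicate 3 it was higher in mdx than in WT (0.29, adjusted p = 0.0435).

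**Figure D4:**
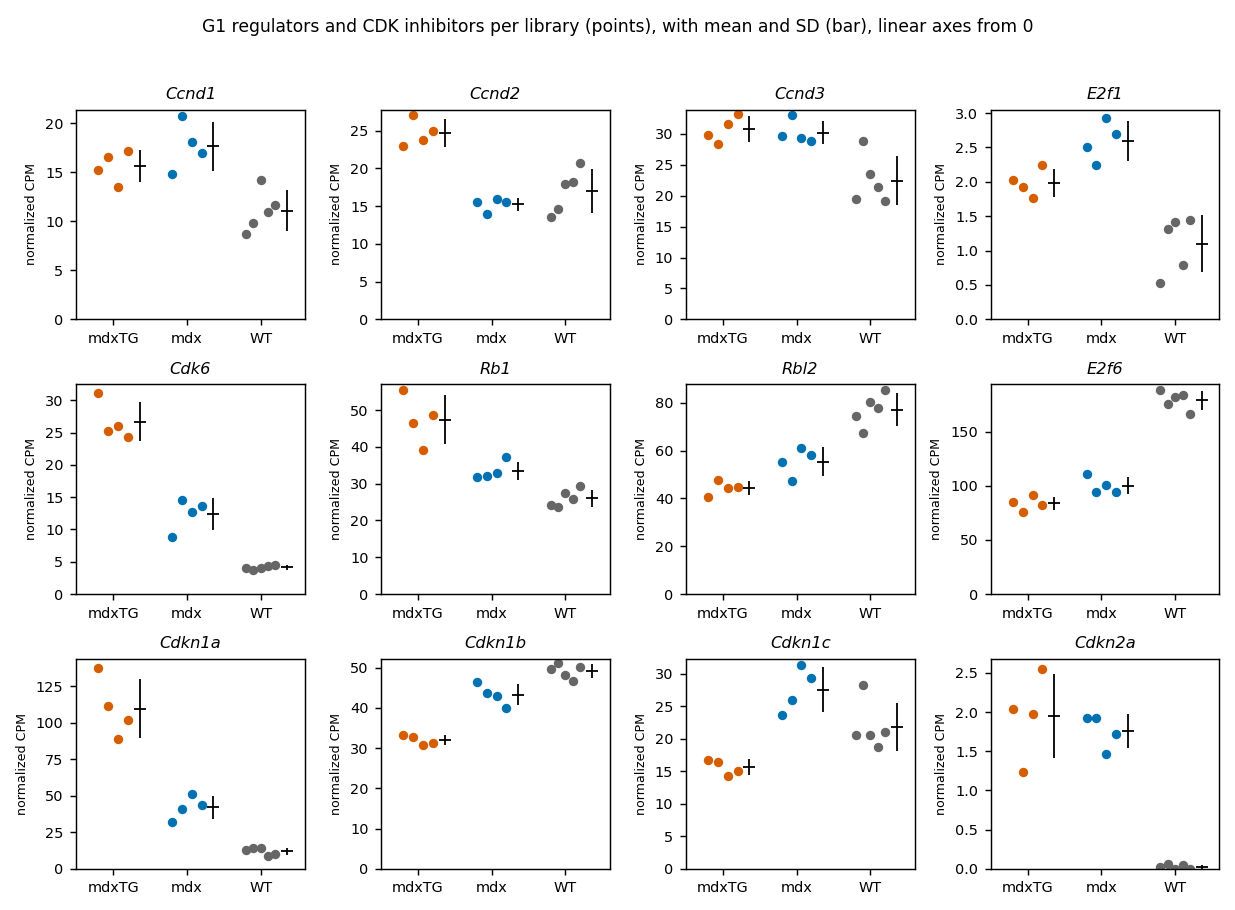
Normalized CPM (y axis, linear from 0) of D-type cyclins, E2F and retinoblastoma family genes and inhibitors of cyclin-dependent kinases in each library, grouped as mdxTG, mdx and WT, with the mean and SD as a bar. Cdk6, Rb1 and Cdkn1a are highest in mdxTG and lowest in WT, the mdxTG points of Ccnd2 lie above both other groups, and Cdkn2a is near 0 in the WT libraries, which held 5 reads in all.

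The authors' deposited tables list genes with an adjusted p below 0.01 and a log2 fold above 1 in size. The authors' deposited table for mdx against WT lists 1073 genes, beside 13846 in the expression sheet. It holds 27 of the 49 genes, 26 of them higher and 1, Pttg1, lower. Their deposited table for mdxTG against mdx lists 748 genes and holds 8 of the 49, all lower. That for mdxTG against WT lists 1857 genes and holds 19 of the 49, of which 17 are higher and 2 lower.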

How the data were processed

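The 13 tibialis anterior libraries were made from TRIzol-extracted, column-purified total RNA with a stranded mRNA kit, per the labels' protocols. The build mm10 and the tools STAR, edgeR and bcl2fastq (version 2.17) are named in the submitters' processing notes. Not given in the sources used here are the annotation, the read counter, its strand setting and its treatment of reads shared with pseudogenes. The authors deposited a signal per gene and library, reads over an effective library size, called CPM by them although the column sums differ; 100% of values came within 0.001 reads of whole reads. The authors also deposited total and mapped read counts with their fraction per library. The authors deposited tables of comparisons with log2 folds, p-values, −log10 values of p and a score (the F statistic), of which only membership and direction were used. The authors' scaling factors ran from 1.107 to 1.191 in mdxTG, 1.006 to 1.068 in mdx and 0.831 to 0.932 in WT.

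Members and lists were chosen with earlier results of these data known. limma 3.58.1 in R 4.3.3, with an intensity trend, fitted log2(signal + 0.5) over all libraries with 1 mean per genotype, for genes of at least 0.5 in 4 libraries. Tests were first run on simulated data. Alternatives were plain CPM, recomputed TMM factors, pseudocounts of 0.1 and 2, no filter or one of 2, edgeR 4.0.16 and DESeq2 1.42.0 on the recovered reads, fits of 2 genotypes, the replicate number as a block, and leaving out each library. Same-numbered mdx and WT libraries deviated together from their group means (r = 0.34, 0.45, 0.33 and 0.18, all over 0.1). The replicate number served as a block in alternative fits only, and the main fit paired no libraries. The labels do not say what a number marks. Some differently numbered libraries deviated together as much or more (mdx 4 with WT 5, r = 0.48, and with WT 3, 0.30, and mdx 3 with WT 5, 0.36), so no pairing is established. The numbers of mdxTG did not pair. Values in every library are given for the gene with the smallest p of each role and comparison, those called against the majority, and Mki67, Top2a and Pcna; further cycle genes were named by their p within each list. Gene coordinates are from GENCODE M21 (mm10) by symbol. No 2 libraries of a genotype agreed within sampling noise (chi-square per degree of freedom of 24.2 or more). p-values measure the spread between these libraries, which may be technical.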

Additional observations from a re-analysis of the deposited data

Results flagged for a closer look

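Among 186 sets of 4 or 5 libraries, each 1 named gene in 1 genotype, 9 had a highest or lowest library set apart from the rest by Dixon's criterion; chance gives about 1 in 20. In WT replicate 3, Ccnb1 stood at 0.368 normalized CPM, Cenpf at 0.71 and Top2a at 1.87, each the highest of 5 WT libraries. The next WT values were 0.136, 0.319 and 0.777. In mdx replicate 1, Mcm5 stood at 2.64, below the other mdx libraries. In mdxTG replicate 4, Bub1b stood at 3, above the others. Among inhibitors of cyclin-dependent kinases, Cdkn2c was highest in mdxTG replicate 1, at 4.69, and in WT replicate 1, at 10.5. Cdkn1c was highest in WT replicate 2, at 28.3. Pold2 was lowest in mdxTG replicate 3, at 18.5, but the other mdxTG libraries were all at 18.7.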

How the results depend on the processing

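Plain CPM medians of all genes were 0.20 in mdx against WT, 0.13 in mdxTG against mdx and 0.36 in mdxTG against WT. In the main fit they were -0.01, -0.00 and 0.02. The all-gene calls in mdx against WT changed to 5153 higher and 736 lower, against 2559 and 2223. Those in mdxTG against mdx became 3506 and 981, against 2133 and 1789. Those in mdxTG against WT became 7919 and 1181, against 3967 and 3501. In plain CPM 2 members were higher in mdxTG than in mdx (Ccnd2 and Pcna) and 3 lower in mdxTG than in WT, without Tpx2 and Mcm2. With a filter of 2 normalized CPM, which removes low genes, 15 members were lower in mdxTG than in mdx and 21 higher in mdxTG than in WT. The replicate block in a fit of both genotypes gave 2 members lower in mdx than in WT, 29 lower in mdxTG than in mdx and 29 higher in mdxTG than in WT; in the fit of all libraries it left all 6 counts as they were, although the mdxTG numbers do not pair. There Rrm2 gained the call in mdxTG against mdx (adjusted p = 0.0158, and 0.00812 with both genotypes alone) and Aurkb lost it (0.0528).

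Replication minus mitosis in mdx minus WT was -0.86, -0.13, -0.22 and -0.70 with a pseudocount of 0.1, a pseudocount of 2, a filter of 2 and without Pttg1, an alternative chosen after seeing the data. In mdxTG minus mdx it was 0.50 and 0.20 with pseudocounts of 0.1 and 2. In mdxTG minus WT it was -0.37, 0.07, 0.10 and -0.31 under the same 4 settings as in mdx minus WT; the cause was not tested. Leaving out 1 library gave 37 to 39 higher and 1 lower in mdx against WT, 1 higher and 19 to 27 lower in mdxTG against mdx, and 31 to 35 higher and 5 to 6 lower in mdxTG against WT, with differences of -0.52 to -0.44, 0.35 to 0.41 and -0.15 to -0.07.

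Among single genes named with values in every library or as inhibitors, signs also turned. In plain CPM the mdx against WT differences of Rrm1, Tpx2, Ccnd2 and Cdkn1b became 0.11, 0.10, 0.09 and 0.05, and the mdxTG against mdx differences of Cdkn2b and Cdkn2d 0.06 and 0.08. Smc4 in mdxTG against WT became -0.00 in edgeR, -0.02 in DESeq2 and with either replicate block, and -0.05 to -0.01 (-0.05, -0.03, -0.02 and -0.01) without 1 of 6 libraries. Without 1 library, mdxTG against mdx ranged from -0.02 to 0.25 for Cdkn2a, -0.10 to 0.02 for Cdkn2b and -0.14 to 0.01 for Cdkn2d. Of these only Cdkn1b had been called. Over 98 results and 24 settings, 2238 values kept direction and call, 58 lost the call, 24 gained one and 19 turned. Genes with few reads per WT library, such as Bub1 and Cdkn2a, limit what their WT levels can show.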

Other observations

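The genes nearest to Pttg1 on chromosome 11 were looked at after its values had been seen. Within 500 kb, 4 measured genes differed in mdx against WT by log2 differences between -0.30 and 0.19, against -4.64 for Pttg1: Slu7 by -0.22, C1qtnf2 by 0.19, Pwwp2a by 0.11 and Ttc1 by -0.30, of which Slu7 and Ttc1 passed the test (limma adjusted p = 0.0156 and 0.0195).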
